A study of Mus musculus with 2 samples.

Results

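Clustered histone genes are the histone genes that lie side by side in the mouse loci Hist1, Hist2, Hist3 and Hist4. They were chosen by name, as every gene of the count table called Hist with a locus number and h, and by a minimum of 20 unique molecular identifiers (UMIs, each counting 1 captured RNA molecule) over all cells. Of 64 genes with such a name, 62 passed and are the members described here, out of 20198 genes in the table. The genes left out were Hist1h2ah with 8 UMIs and Hist2h2aa2 with 7, and the lowest member, Hist1h1t, had 24.

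The cells came from dissociated mouse corneas and were sequenced with a 10x Genomics 3′ kit in 2 libraries. UW pooled the corneas of 4 unwounded mice, and W pooled those of 4 mice taken 24 h after the central epithelium had been scraped off inside a trephine mark. The study used male mice aged 6 to 8 weeks, gives no strain and names no genetic change. Wounding was done under pentobarbital sodium with procaine hydrochloride on the eye, the wound was stained with sodium fluorescein and given ofloxacin, an antibiotic, and UW is not said to have had these agents, so their effects and that of the wound cannot be told apart. UW held 16450 cells with 367166822 UMIs, and W held 12417 cells with 289586482 UMIs.

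Each condition was therefore a single pooled library. Differences between them have no replicates behind them, and no p-value is given. Values are UMIs per 1000000 UMIs of the same cells (CPM), with exact Poisson 95% intervals that cover counting error only. Median depth was 22014 UMIs per cell in UW and 20290.0 in W, and 52 cell barcodes occurred in both libraries. Cells were taken by the numbered clusters the authors deposited, which carry no cell type names. Clusters 1 to 5 and 11 scored highest for corneal epithelial markers (CEpC), and cluster 0 for stromal ones. Cluster 8 scored highest for mitosis markers (MtC, 2.88) and next for CEpC (0.89), and its leading genes were Top2a, Nusap1 and Mki67. Cluster 11 was led by Ung, Hells, Uhrf1 and Mcm genes, which act in DNA replication and repair. Neither cluster 6 nor cluster 7 scored above 0 for CEpC, and no other marker list scored above 0 there, so they are called by number and by their leading genes, Upk3b, Krt78 and Psca in cluster 6 and Lce3a in cluster 7. They are counted below with the epithelial clusters. Cluster 9 scored 1.06 for MtC and 0.36 for CEpC, and cluster 10 scored 2.72 for endothelial markers with stromal ones close behind and was left unnamed. Clusters 13 to 17 were almost entirely from W and entered no comparison.

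Histones are the proteins around which nuclear DNA is wrapped. H2A, H2B, H3 and H4 form the core of the nucleosome and H1, the linker histone, binds the DNA where it enters and leaves. Most copies of these proteins are made while DNA is copied, from clustered genes without introns whose messages end in a short stem-loop in place of a poly(A) tail. The stem-loop is bound by Slbp, and the message is destroyed when DNA synthesis stops. Some clustered genes also give longer, polyadenylated messages, as cells that have stopped dividing are known to do. A 3′ kit primes on poly(A), so it counts the second kind of message with ease and the first kind poorly.

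The members fell into 5 families. H1 had 6 members and 57.0% of the members' UMIs, H2A had 15 and 6.15%, H2B had 16 and 31.4%, H3 had 12 and 1.84%, and H4 had 13 and 3.56%. Hist1 on chromosome 13 (GRCm38, 21715763 to 23764406) held 50 members and 96.3% of the UMIs. Hist2 on chromosome 3 held 9 members with 1.18%, Hist3 on chromosome 11 held 2 with 2.32%, and Hist4 on chromosome 6 held 1 with 0.202%. The UMIs were far from evenly spread. Hist1h1c, a linker histone, had 236595 (45.0%) and Hist1h2bc, a core histone, had 155933 (29.7%), so that 2 members made up 74.7% of the total. Hist1h1e (31050), Hist1h1b (23149) and Hist3h2a (11961) came next. This is an order of captured UMIs and not of RNA per cell, since the kit reads only 3′ ends and captures messages unequally.

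The stem-loop is shown here because it marks the replication-dependent message and because the order of captured UMIs can be set against what the annotation places after it. A 16-base stem-loop was found by script in the GENCODE transcripts of 43 of 62 members, in 6 forms. Capitals mark the paired stem and lower case the loop.
Form in 25 members, Hist1h1c among them: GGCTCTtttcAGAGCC
Form in 7 members: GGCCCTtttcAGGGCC
Form in 6 members: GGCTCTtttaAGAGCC
Form in 2 members: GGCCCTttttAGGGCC
Form in 2 members: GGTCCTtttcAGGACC
Form in 1 member: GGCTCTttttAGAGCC
The H4 members with a stem-loop carried the forms whose stem begins with GGCCCT or GGTCCT, and the H1, H2A, H2B and H3 members carried those that begin with GGCTCT. Over transcripts, 45 of 67 member transcripts with a stop codon held the motif (67.2%), against 60 of 58725 protein-coding transcripts of other genes (0.102%). In Hist1h1c the stem-loop lay at chr13:23739512-23739527 on the plus strand, and the annotated transcript ran on for 840 bases.

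Median captured UMIs differed with the annotated end of the gene, while the shares of UMIs rest on single members. The 22 members whose model runs at least 100 bases past the stem-loop held 61.5% of the UMIs, with a median of 1085.0 per member. Hist1h1c alone had 236595 of their 322911 UMIs, and Hist1h1t, the lowest member of all with 24, is also among them. The 21 members whose model ends within 100 bases of the stem-loop held 2.77%, with a median of 229.0. Of members without a stem-loop in the model, 4 run at least 100 bases past the stop codon (30.0% of the UMIs, median 765.0). Hist1h2bc had 155933 of the 157828 UMIs of these 4. The 15 others without a stem-loop end sooner (5.71%, median 289.0). Hist1h1b went against this order: its model ends at the stop codon, and it still had 23149 UMIs. The models are those of GENCODE M21, while the authors counted on an mm10 reference whose ends may differ.

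**Figure D1:**
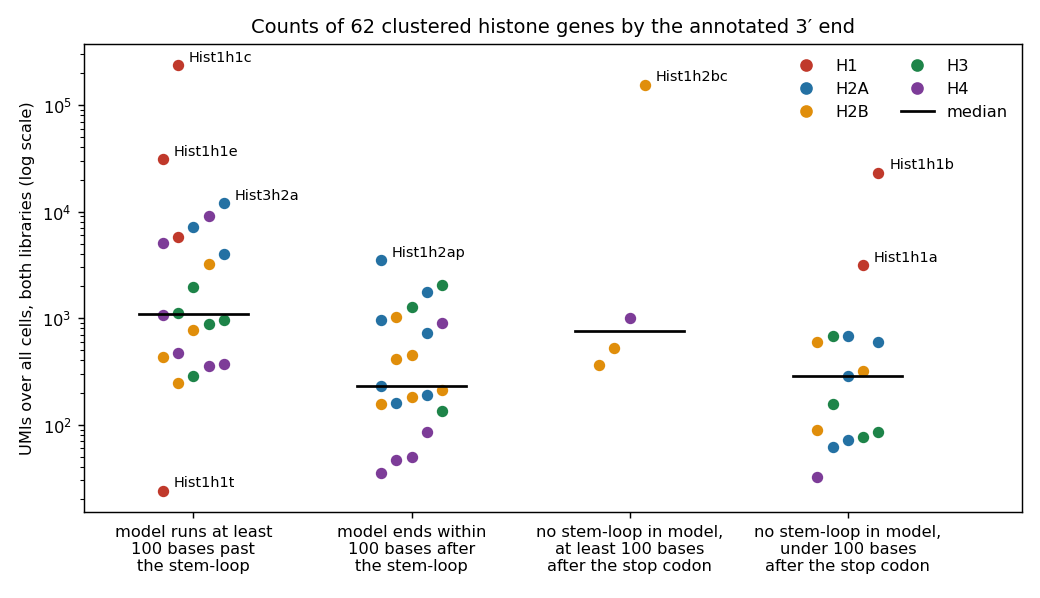
UMIs of each of the 62 members over all cells of both libraries (log scale) in 4 classes of annotated 3′ end, coloured by histone family, with the median of each class as a bar. The class whose model runs past the stem-loop has the highest median (1085.0), and Hist1h1b stands far above the others whose model ends near the stop codon.

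Many members are near copies of each other. In windows of 90 bases over the last 500 bases of the transcripts, 45 of 62 members shared a window with another gene and 26 shared at least 50% of them, and such reads may be dropped or split by the counting. Hist1h1c, Hist1h2bc and Hist1h1b shared none. Hist1h1e shared 99.0%, since the models of Hist1h2be and Gm11398 span it on the same strand, and Hist1h2ap shared 92.4% and Hist1h2ae 47.7%, so the values of these members are uncertain.

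Of the 62 members, 56 had a RefSeq promoter window (GRCm38.p6, 250 bases before to 50 after the start). TATAAA, the TATA box, occurred on either strand in 57.1% of them and in 13.5% of all other promoters. CCAAT occurred in 83.9% against 37.3%. It was in every H1, H2A, H2B and H3 window and in 3 of 12 H4 windows. ATTTGCAT, the octamer, occurred in 5 of 14 H2A and 5 of 14 H2B windows and in no window of H1, H3 or H4, which gave 17.9% of members against 1.7% of other promoters. The window of Hist1h2ac is shown, because it also holds the start of Hist1h2bc on the opposite strand. It lies at chr13:23683910-23684209 (minus strand), and capitals mark the 3 searched motifs on either strand.
Hist1h2ac promoter: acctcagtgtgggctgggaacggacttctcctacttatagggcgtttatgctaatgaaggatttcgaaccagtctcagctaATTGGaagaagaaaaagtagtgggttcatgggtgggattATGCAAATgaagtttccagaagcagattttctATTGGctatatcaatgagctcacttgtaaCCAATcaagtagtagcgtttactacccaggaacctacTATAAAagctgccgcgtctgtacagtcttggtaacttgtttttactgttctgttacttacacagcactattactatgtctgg
The gap between the 2 genes was 251 bases. Across this shared stretch Hist1h2bc had 155933 UMIs and Hist1h2ac, an H2A gene, had 4036. Hist1h2bc was higher in W in 11 of 12 clusters (12 of 12 under TMM or median-of-ratios scaling) and Hist1h2ac in 6 of 12. In all, 10 pairs of members lay head to head within 1000 bases, 9 of them an H2A with an H2B gene. In cluster 8, both members of 7 pairs were higher in W, both of 1 pair were lower (Hist1h2ap and Hist1h2br), and 2 pairs were of opposite sign (Hist1h2ae with Hist1h2bg, Hist1h2bl with Hist1h2ai). Of all members counted there, 40 of 56 were higher. The signs of Hist1h2br, Hist1h2bl, Hist1h2ai, Hist1h2bf, Hist1h2ad, Hist1h2bp and Hist2h2be lay within counting error. The pairs with the largest rises on both sides were Hist1h2ak with Hist1h2bn (log2 ratios 2.70 and 1.99) and Hist1h2ag with Hist1h2bj (2.37 and 2.15).

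Where the members were counted is described next, cluster 8 against epithelial clusters 1 to 7 and 9. Clusters were drawn from the expression of these same cells, so this is a description and not a test. Within UW, 48 members had at least 20 UMIs over both sides. Of these, 40 were at least 2-fold higher in cluster 8 and 0 were 2-fold lower, where 29.6% of all genes with 20 UMIs were 2-fold higher. The median log2 ratio was 2.65 over members and 0.49 over all genes. Within W, 49 of 60 members were 2-fold higher and 1 was lower, beside 12.9% of all genes, with medians of 2.36 and 0.24. The share of all genes 2-fold lower was not counted here, so the 0 and 1 members lower stand without a background. Members are counted here only where they had enough UMIs, and a member seen chiefly in cluster 8 passes because of it.

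The rise was not shared by the 2 members with the most UMIs. Summed over all members, cluster 8 stood 2.09-fold above the other epithelial clusters in UW and 1.56-fold in W. Without Hist1h1c and Hist1h2bc it stood 8.85-fold above in UW (810.3 against 91.6 CPM) and 5.64-fold in W (986 against 175). Hist1h1b, a linker histone gene, was at 2.51 CPM in the other clusters and 216 in cluster 8 of UW, and at 14.7 and 309.9 in W. Hist1h2ap and Hist1h2ae, both H2A genes, had log2 ratios of 5.45 and 5.40 in UW, and of 4.36 and 3.54 in W. Hist1h2bc went the other way, at -0.57 in UW and -1.09 in W. Hist1h1c was 0.43 in UW and -0.59 in W, so its direction differed between the libraries.

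By family, H2A stood 8.28-fold above the other clusters in UW and 5.90-fold in W, H3 5.20 and 3.97, and H4 5.28 and 3.84. H1 stood 2.13- and 1.80-fold above, and H2B without Hist1h2bc 3.15- and 4.51-fold. The H1 values include Hist1h1c, which held 433 of 460.1 CPM in the other clusters of UW and 583 of 978 in cluster 8. In W it held 367 of 454 and 243 of 815. Hist1h1e, Hist1h1b, Hist1h1d and Hist1h1a had log2 ratios of 2.62 to 6.43 in UW and 1.54 to 4.40 in W. With Hist1h2bc, H2B was lower in cluster 8, at 0.766 and 0.614 of the level elsewhere.

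Cluster 11, led by replication genes, held far less. Of 43 members in UW, 13 were 2-fold higher than in clusters 1 to 7 and 9 and 4 were lower, beside 25.7% of all genes that were higher, so the members' share (30.2%) was near the background. In W, 13 of 57 were higher and 2 lower, beside 13.1% of all genes that were higher. The share of all genes 2-fold lower was not counted, so the 4 and 2 members lower stand without a background. Members without the top 2 were at 158 CPM in cluster 11 of UW (1.72-fold) and 247 in W (1.42-fold). Genes of the S list, which act while DNA is copied, stood 5.72- and 4.22-fold above there, and 42 of 43 were 2-fold higher in each library. Hist1h1b was the named member with the largest rise in cluster 11, at 25.5 CPM in UW and 59.6 in W (log2 ratios 3.35 and 2.02). In cluster 8 the S list stood 7.86- and 3.96-fold above, so it was high in both clusters. The G2/M list stood 6.36- and 4.03-fold above in cluster 8, and 1.02- and 1.30-fold in cluster 11. Cells were next taken by these lists in place of clusters.

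Each of 22008 epithelial cells was placed by its share of UMIs on the S list and on the G2/M list, whose genes act before and during mitosis, and the highest 10% of cells for each list were called high. No listed gene is a member. The borders were at 1872 CPM for the S list, with 470 cells within 10% of it, and at 3307 CPM for the G2/M list, with 534 cells. They cut a continuous score, so the 4 ranges are not cell types. Neither list was high in 12572 UW and 6078 W cells, S alone in 501 and 656, both in 205 and 839, and G2/M alone in 223 and 934. Cluster 8 held 201 of the 205 UW cells and 688 of the 839 W cells with both lists high.

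Members without the top 2 were highest where both lists were high. In UW they were at 93.2 CPM (92.1 to 94.2) with neither list high, 179.5 (172 to 188) with S alone, 1357 (1327 to 1389) with both and 444 (425 to 464) with G2/M alone. In W the values were 165, 221, 1167 and 464. The order of the ranges was the same in both libraries, and W was higher than UW with neither list high and lower with both. Of the members with at least 100 UMIs in these cells, 15 of 31 peaked with both lists high in UW (25.4% of all genes with 100 UMIs did) and 44 of 50 in W (30.4% of all genes). With G2/M alone 14 peaked in UW and 4 in W, beside 26.4% and 17.6% of all genes, and with S alone 0 did in either library, beside 23.9% and 26.5%. Only Hist1h2bc and Hist2h2be in UW, and Hist1h1c and Hist1h2bc in W, peaked with neither list high, beside 24.2% and 25.6% of all genes. More members reach 100 UMIs in W, which has more cells in the ranges of high lists.

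Hist1h1b followed this order with the widest span of the named members in UW. It was there at 2.80 CPM with neither list high, 37.1 with S, 419.6 with both and 61.1 with G2/M, and in W at 12.3, 50.2, 404 and 75.4. Its level with both lists high was thus nearly equal in the 2 libraries (intervals 403 to 437 and 398 to 411), while that with neither list high was 2.13 higher in W on the log2 scale. Both levels with neither list high lay below the 40.9 CPM of Hist1h1b in the neutrophil-like cluster 13 of W. Hist1h1e, another linker gene, was at 19.9 CPM with neither and 196 with both in UW, and at 63.5 and 192 in W. Hist1h2ae was at 2.62 and 232 in UW, and at 4.98 and 84.4 in W. Hist1h2ap was at 2.05 and 179 in UW, and at 0.870 and 30.0 in W. These 2 H2A genes were lower in W where both lists were high, by -1.46 and -2.58 on the log2 scale, with intervals that did not overlap.

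Hist1h1c and Hist1h2bc were lower with both lists high than with neither, in both libraries. Hist2h3c2 had log2 ratios of -1.45 in UW and -0.46 in W, and Hist2h2be and Hist1h2be had -2.36 and -0.25 in UW, with intervals of the levels that overlapped in each case. Hist2h3c2 and Hist2h2be were named after their values were seen. Hist1h1c was at 438, 417, 338 and 798 CPM in UW and 378, 181, 180.0 and 353 in W. Its level was lowest with both lists high in UW, while in W S alone and both gave equal levels within counting error. Hist1h2bc was at 209.6, 98.2, 105 and 195 in UW and 359.5, 241, 146 and 271 in W. Hist3h2a, an H2A gene outside Hist1, was at 18.2 CPM with neither and 26.0 with both in UW, and at 12.4 and 25.5 in W (log2 ratios 0.52 and 1.04). Hist1h4d, an H4 gene, was at 3.24 and 30.9 in UW, and at 5.87 and 46.4 in W.

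**Figure D2:**
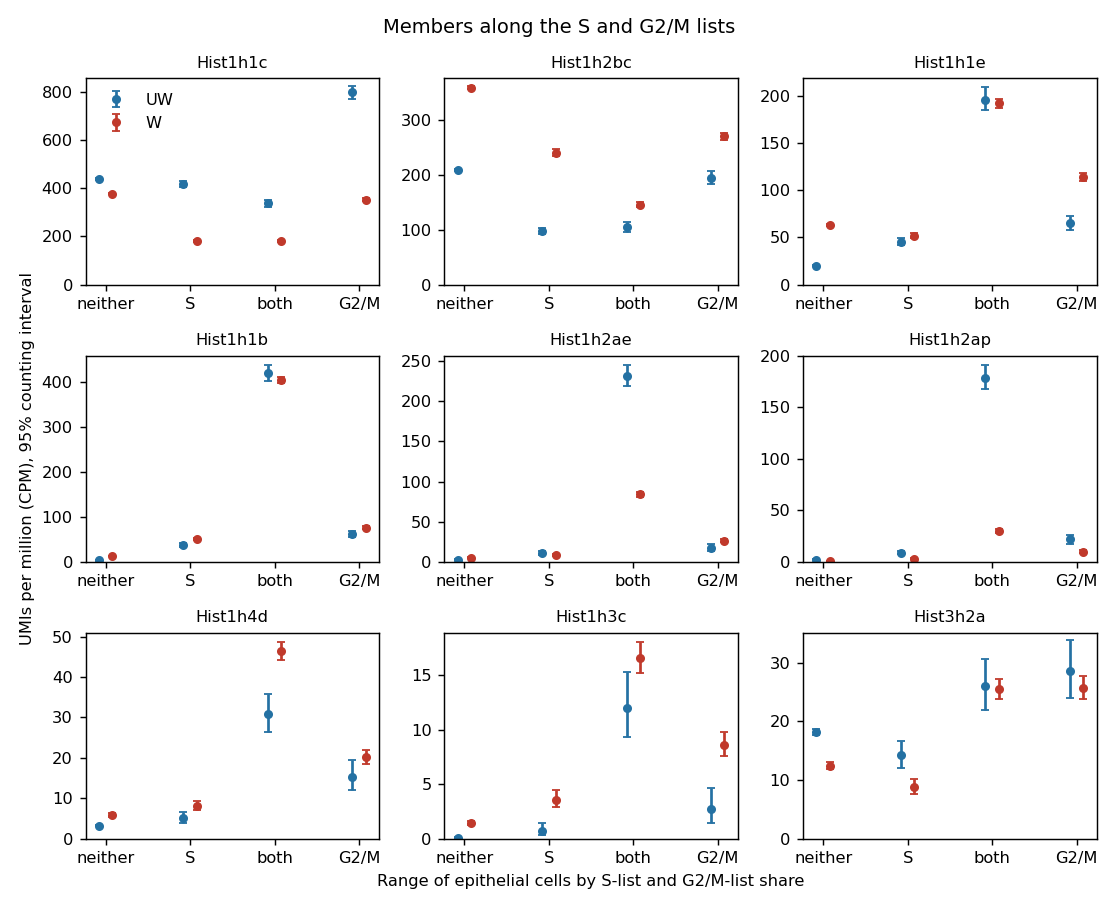
CPM of 9 members in 4 ranges of epithelial cells set by the S and G2/M lists, UW in blue and W in red, with exact Poisson 95% intervals (counting error only) and a separate linear axis from 0 in each panel. Hist1h1b, Hist1h1e, Hist1h2ae, Hist1h2ap, Hist1h4d and Hist1h3c peak where both lists are high, while Hist1h1c and Hist1h2bc do not.

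W was then compared with UW within each of clusters 0 to 11, each with at least 50 cells in both libraries. A log2 ratio was formed only for members with at least 20 UMIs over both libraries, and a change means a ratio of at least 2-fold, without a test. A member of low counts can pass this filter through 1 library alone, and is then counted only where that library is high. Summed over all members, W was higher in clusters 0 (306 to 519 CPM, log2 ratio 0.76), 7 (850.4 to 1440.4, 0.76), 6 (0.67), 2 (0.43), 4 (0.30), 5 (0.24), 1 (0.10) and 10 (0.07), and lower in clusters 9 (-0.46), 3 (-0.20), 11 (-0.18) and 8 (-0.14). In cluster 1 the sign turned under TMM and median-of-ratios scaling (-0.03), and in cluster 7, where the median of all genes was 0.26, these scalings gave 0.38 and 0.36. The direction of the sum rested on few members. Without Hist1h1c and Hist1h2bc, a choice made after the values were seen, the ratio was positive in every cluster from 0 to 11 but cluster 10 (-0.23), and ranged up to 1.25 in cluster 4. In cluster 8 the other 60 members went from 810.3 to 986 CPM (0.28), in cluster 3 the ratio was 0.35, in cluster 9 0.13 and in cluster 11 0.65. These ratios rested on few members too. Without Hist1h1e and Hist1h1b as well, the ratio was -0.11 in cluster 0, -0.14 in cluster 3, -0.13 in cluster 9 and -0.35 in cluster 10. In cluster 8 it was then 0.06 (474 to 496 CPM), and elsewhere it ran from 0.07 in cluster 2 to 0.59 in cluster 1.

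**Figure D3:**
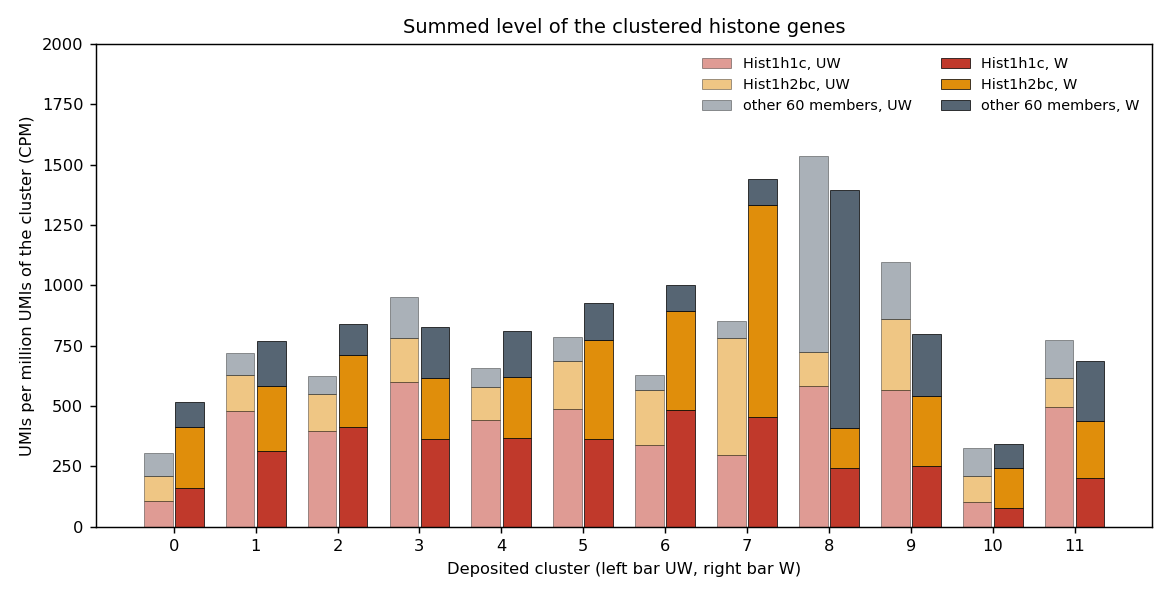
CPM summed over the members in deposited clusters 0 to 11, UW as the left and W as the right bar, stacked as Hist1h1c, Hist1h2bc and the other 60 members. The other 60 members stand out in cluster 8 (810.3 CPM in UW, 986 in W), and Hist1h2bc fills most of cluster 7 in W (882 of 1440.4).

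H1 members differed among themselves. Hist1h1c was lower in W in 8 of 12 clusters, from 583 (570.2 to 597) to 243 (239 to 248) CPM in cluster 8, from 568 to 252 in cluster 9 and from 496 to 200.1 in cluster 11. These 3 were past 2-fold, with log2 ratios of -1.26 in cluster 8 and -1.31 in cluster 11. It was higher in W in clusters 0 (108 to 161), 2, 6 and 7 (297 to 453). Hist1h1b was higher in W in 12 of 12 clusters and past 2-fold in 11, from 0.984 to 5.86 in stromal cluster 0, from 2.89 to 15.8 in cluster 1 and from 25.5 to 59.6 in cluster 11. The smallest ratio, 0.52, was in cluster 8, where it was most abundant. In clusters 0 to 7, 9 and 10 the share of cells with a UMI was, at 2000 UMIs per cell, below that of the neutrophil-like cluster 13, and as deposited it reached 39.4% in cluster 9 of W. Hist1h1e was higher in 11 of 12 and past 2-fold in 6, with the largest ratio in cluster 4 (21.1 to 109, 2.37). Hist1h1a, a linker gene of low counts, was higher in all 10 clusters that had 20 UMIs, from 20.6 to 42.6 in cluster 8.

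H2A members moved both ways. Hist1h2ap was lower in W in 11 of 12 clusters and past 2-fold in 10 (11 under the other scalings), from 87.2 (82.2 to 92.5) to 24.8 (23.5 to 26.3) in cluster 8 (-1.81) and from 3.97 to 0.770 in cluster 0 (-2.37). Hist3h2a was lower in 11 of 12 (10 under the other scalings) and past 2-fold in 5, among them cluster 3 (27.8 to 10.6) and cluster 11 (16.8 to 7.79), with cluster 8 nearly equal at 27.4 and 26.9. Hist1h2ae was lower in cluster 8 (108 to 68.6, -0.66) and higher in 10 of 12 clusters (9 under TMM and 8 under median-of-ratios scaling). Hist1h2ac had 6 clusters each way, from 9.53 to 12.3 in cluster 8. In the opposite direction, Hist1h2af went from 1.88 to 11.2 and Hist1h2ak from 1.25 to 8.15 in cluster 8, and these were chosen for display after their values were seen. Over the family in cluster 8, 4 of 14 H2A members were past 2-fold higher and 1 lower. The shares of all genes were 10.8% and 9.58%, and the median log2 ratio of the 14 was 0.63.

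H2B was led by Hist1h2bc, which was higher in W in 11 of 12 clusters (12 under the other scalings), from 102 (98.2 to 106) to 254 (249 to 259.9) in cluster 0, from 120 to 238 in cluster 11 and from 485 to 882 in cluster 7. Its ratio in cluster 8 was small (142 to 168, 0.24) and in cluster 9 it was level (293 and 289). Hist1h2bj was higher in all 9 clusters with 20 UMIs, past 2-fold in each. It went from 2.81 (1.97 to 3.90) to 12.5 (11.5 to 13.5) in cluster 8 and from 0.214 to 1.02 in cluster 3. Outside clusters 0 and 8 it had only 0 to 7 UMIs in UW in these clusters, so it passed there chiefly through W. The count over clusters was thus largely set by the filter. Hist1h2be was lower in 8 of 12 clusters (7 under the other scalings), and its values are uncertain because of its overlap with Hist1h1e. In cluster 8, 7 of 16 H2B members were past 2-fold higher and 0 lower, beside 10.8% and 9.58% of all genes, with a median log2 ratio of 0.77.

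H3 members were low in counts and mostly higher in W. Hist1h3a was higher in all 11 clusters that had 20 UMIs, from 4.85 to 11.3 in cluster 8 and from 2.54 to 5.83 in cluster 11. Hist1h3c was past 2-fold higher in all 7 such clusters. It went from 6.41 (5.10 to 7.95) to 15.2 (14.2 to 16.4) in cluster 8 and from 0.615 to 4.17 in cluster 11. In clusters 0, 1, 5, 9 and 11 Hist1h3c had only 1 to 8 UMIs in UW, so it passed the filter there chiefly through W. Hist1h3d was higher in 8 of 11, and lower in cluster 8 (10.6 to 7.43). In cluster 8, 7 of 12 H3 members were past 2-fold higher and 2 lower, beside the same 10.8% and 9.58% of all genes. The 2 were Hist2h3c1 (6.33 to 1.68) and Hist2h3c2 (2.89 to 1.13), both named after their values were seen.

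H4 members moved both ways. Hist1h4d was higher in 12 of 12 clusters, though past 2-fold in 3 (5 under the other scalings), from 20.4 to 40.4 in cluster 8. In every other compared cluster of W, Hist1h4d was below its 18.0 CPM in the neutrophil-like cluster 13. Hist1h4i was higher in 8 of 12, from 8.38 to 21.9 in cluster 11, and lower in cluster 8 (53.9 to 46.7). Hist4h4 was past 2-fold higher in 4 clusters (3 under the other scalings) and lower in 4, from 0.394 to 3.75 in cluster 4 and from 6.25 to 2.46 in cluster 8. In cluster 8, 2 of 9 H4 members were past 2-fold higher and 1 lower, counts near the 10.8% and 9.58% of all genes, with a median of -0.08, to which TMM and median-of-ratios scaling add 0.11 and 0.10.

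**Figure D4:**
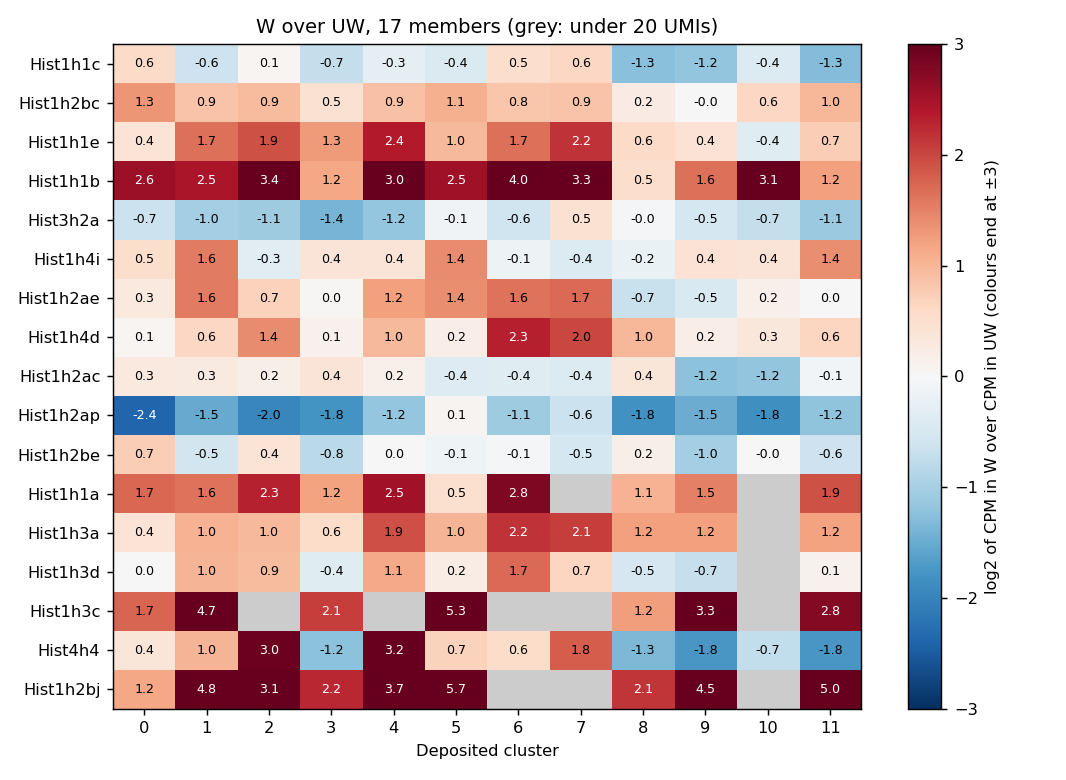
Log2 ratio of CPM in W over CPM in UW for 17 named members (rows) in clusters 0 to 11 (columns), red for higher in W, blue for lower and grey for under 20 UMIs. Hist1h1b is red in every cluster, Hist1h2ap is blue in 11 of 12, and Hist1h1c changes colour between clusters.

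Counts over all members do not depend on the choice of genes. In cluster 8, 21 of 56 members were at least 2-fold higher in W and 5 lower, beside 10.8% of all genes higher and 9.58% lower, with a median log2 ratio of 0.63 over members and -0.04 over all genes. In cluster 11, 18 of 37 were higher and 4 lower, beside 12.7% and 9.33%, with medians of 0.99 and 0.04. In cluster 1, 16 of 32 were higher and 3 lower, beside 14.7% and 11%, with medians of 0.99 and 0.03. In cluster 3, 11 of 40 were higher and 5 lower, beside 15.1% and 11.1%, with medians of 0.30 and 0.03. In stromal cluster 0, 9 of 32 were higher and 4 lower, beside 7.34% and 9.67%, with medians of 0.49 and -0.15, and under both other scalings 10 were higher and 2 lower, beside 8.67% and 7.32% of all genes with TMM and 8.96% and 7.04% with median of ratios. Cluster 10 had more members lower, with 1 of 16 higher, a share near the 4.97% of all genes, and 4 lower, beside 6.63%, and medians of -0.38 and -0.09. In cluster 9, 14 of 44 were higher and 7 lower, beside 9.12% and 9.76%, with medians of 0.24 and -0.06. In cluster 5, 17 of 38 were higher and 1 lower, beside 12.7% and 7.47%. In cluster 4, 11 of 28 were higher and 4 lower, beside 13.8% and 13.5%, and in cluster 2, 8 of 28 and 4, beside 13.2% and 13.1%. In cluster 6, 11 of 26 were higher and 4 lower, beside 17.2% and 9.58%, and in cluster 7, 9 of 22 and 0, beside 23.2% and 6.48%. The members past 2-fold lower were 5 in cluster 8, namely Hist1h1c, Hist1h2ap, Hist4h4, Hist2h3c1 and Hist2h3c2, and Hist1h2ap was past 2-fold lower in each of clusters 0, 1, 3, 8 and 11. With at least 100 UMIs, 18 of 40 members were higher and 4 lower in cluster 8, beside 8.42% and 7.97% of all genes. In cluster 11 these were 4 and 3 of 15, beside 9.93% and 7.65%. In cluster 3 they were 3 and 3 of 18, beside 11.6% and 9.72%. The clusters hold different cells of the same 2 libraries, so they do not repeat the comparison.

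**Figure D5:**
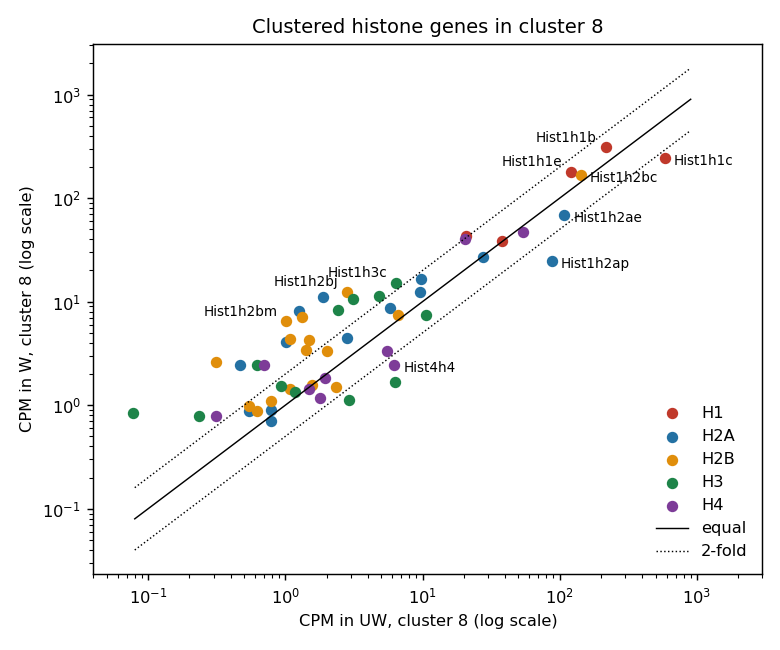
CPM in W against CPM in UW in cluster 8 for 56 members (both axes log), coloured by family, with lines at equal levels and at 2-fold. Above the upper 2-fold line lie 21 members, and below the lower one lie 5, Hist1h1c, Hist1h2ap and Hist4h4 among them.

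Ratios in cluster 8 are next given by annotated end, where 10.8% of all genes were past 2-fold higher and 9.58% lower. Of 13 members whose model has no stem-loop and ends within 100 bases of the stop codon, 9 were past 2-fold higher and 0 lower (median log2 ratio 1.79). Of 18 whose model ends within 100 bases of the stem-loop, 8 were higher and 1 lower (median 0.73). Of 21 whose model runs at least 100 bases past it, 4 were higher and 4 lower (median 0.00). The 4 members without a stem-loop that run at least 100 bases past the stop codon had 0 in either direction (median 0.08). For the first 3 classes, in the same order, the medians in cluster 11 were 1.94, 2.26 and 0.44, over 6, 11 and 17 members, and in cluster 3 they were 1.19, 0.55 and 0.04. In the same order the medians were 2.14, 0.42 and 0.40 in cluster 0, over 4, 7 and 18 members, and 2.04, 1.00 and 1.01 in cluster 1, over 2, 8 and 19. The 2 classes with a stem-loop were thus level in clusters 0 and 1, and in cluster 1 10 of 19 members that run past it were 2-fold higher, beside 14.7% of all genes. In the class that runs past the stop codon without a stem-loop, of 3 or 4 members, the medians were 0.77 in cluster 11, -0.24 in cluster 3, 1.32 in cluster 0 and -0.95 in cluster 1. The split by annotated end was made after these ratios were known, the classes differ in counts, and the part of the chemistry in these ratios was not tested. The study's methods and its labels name different versions of the kit, without saying that the libraries differed.

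Shares of cells with a UMI show how widely the counts were spread. Hist1h1b had a UMI in 61.9% of UW cells of cluster 8 (95% interval 57.6 to 66.0) and in 76.8% of W cells (74.4 to 79.0), and in 32.4% (28.7 to 36.2) and 66.2% (62.1 to 70.1) of cluster 11. In the neutrophil-like cluster 13 of W, a type that does not divide once mature, the share was 9.86% (7.77 to 12.3), at a median of only 2509.5 UMIs per cell. Depth also differed between the libraries, with a median of 24704 UMIs per cell in cluster 8 of UW and 35499 in W. With every cell thinned to 5000 UMIs the share in cluster 8 was 41.4% in UW and 51.0% in W, and in cluster 11 9.50% and 23.0%. At 2000 UMIs it was 22.6% (19.1 to 26.4) and 33.4% (30.9 to 36.0) in cluster 8, above the 7.02% (5.08 to 9.40) of cluster 13. The interval of cluster 11 of W (10.2%) overlapped that of cluster 13 at that depth. In clusters 0 to 7, 9 and 10 the shares ran from 0.951% to 6.28% in W and from 0% to 2.09% in UW, and in cluster 11 of UW the share was 5.25%. All of these were below that of cluster 13, so the shares there are not read as expression.

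Other genes of the same pathway were taken from lists that hold no member. The first list holds replication-independent histones, made outside S phase as well. In cluster 8, 0 of 11 were past 2-fold higher in W and 1 was lower, counts near the 10.8% and 9.58% of all genes, with a median log2 ratio of -0.17. H3f3b and H3f3a, which encode H3.3, went from 9189.8 to 5650.1 and from 2251 to 1769 CPM, and H2afz, which encodes H2A.Z, from 2429 to 2222. H1f0, a linker histone of resting cells, went from 291 to 259. In cluster 11 H2afz went from 995 to 1761 (0.82) and H3f3b from 5832 to 3449 (-0.76).

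The same shares of all genes in cluster 8, 10.8% and 9.58%, stand beside the counts of the next lists. Of 21 genes for transcription and 3′ end processing of histone messages, 1 was past 2-fold higher and 1 lower in cluster 8, with a median of -0.15. Slbp, the stem-loop binding protein, went from 163 to 135 CPM in cluster 8 and from 106 to 126 in cluster 11. Mbnl1, an RNA-binding protein, went from 119 to 64.8 in cluster 8, and Ncbp2 and Srrt, of the cap-binding complex, from 54.0 to 59.0 and from 72.1 to 63.9. Of 12 genes of the poly(A) machinery, 0 were past 2-fold in either direction in cluster 8 (median -0.21). Papola, a poly(A) polymerase, went from 141 to 113, and Nudt21, Fip1l1 and Cpsf6, cleavage and polyadenylation factors, had log2 ratios of 0.03, -0.18 and -0.55.

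Of 26 histone chaperone and assembly genes in the table, 1 was past 2-fold higher in cluster 8 and 0 lower (median -0.01), fewer than the share of all genes would give. It was Npm1, a nucleolar chaperone, which went from 454 to 1264 CPM there (1.48), from 475 to 1213 in cluster 11 and from 323 to 675 in cluster 3. Set, Nap1l1 and Rbbp4, which carry or bind histones, had log2 ratios of 0.43, 0.33 and -0.48 in cluster 8.

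The phase lists moved between the libraries as well. In cluster 8, 10.8% of all genes were past 2-fold higher and 9.58% lower. There 2 of 43 S genes were higher and 1 lower (median -0.21). Of 54 G2/M genes, 0 were higher and 7 lower (median -0.54). The sum of members without the top 2 went from 810.3 to 986 CPM (log2 ratio 0.28). Without Hist1h1e and Hist1h1b as well it was nearly level, at 474 and 496 CPM (0.06). In cluster 11, 13 of 43 S genes and 35 of 54 G2/M genes were past 2-fold higher (medians 0.58 and 1.26), beside 12.7% of all genes, and 0 of either were lower, beside 9.33%. In cluster 3, 18 of 42 and 31 of 53 were higher, with 1 and 0 lower, beside 15.1% and 11.1%. In cluster 0, 10 of 43 and 23 of 53 were higher, with 0 and 1 lower, beside 7.34% and 9.67%. The share of cells in each range differed between W and UW within a cluster, and its part in the members' ratios was not tested beyond the cells with neither list high. In these cells the summed ratio of all members was -0.60 in cluster 8 (from 55 UW and 24 W cells), -0.25 in cluster 11 and -0.51 in cluster 9. In the other 7 epithelial clusters this ratio moved by less than counting error. Hist1h1c and Hist1h2bc hold most of the members' UMIs, so the sum says little about the ratios of the other members.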

How the data were processed

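The authors aligned 10x Genomics 3′ reads in Cell Ranger (version 3.1.0 per the labels) to an mm10 reference, although the labels list mm9. Their stated filters were 500 to 8000 genes per cell, no more than 10% mitochondrial UMIs, at least 5 cells per gene, and removal of doublets and of cells showing a dissociation response. The deposited values are raw UMI counts per gene and cell, without normalization. All 28867 cells and 20198 genes held whole numbers, and each cell's sum matched the deposited cell table, which gave the Seurat cluster, library and doublet calls. The study describes more cells than the tables used here hold.

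Counts were summed per cluster and library and divided by all UMIs of those cells (Python 3.11.15, pandas 2.3.3, numpy 2.4.6, scipy 1.17.1). Intervals are exact, Poisson for sums, conditional for ratios and Clopper-Pearson for shares, at 95%, and cover counting error only. A ratio needed 20 UMIs over both libraries, a cluster 50 cells in each, and a sum of 0 counts as at most 3 counts. No test was run, since each condition is 1 library. Steps were tested on simulated data. Gene models came from GENCODE M21 (GRCm38), promoters from RefSeq.

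The members and lists were chosen with earlier results of these data known. Members named in full were the 3 with the most UMIs in each family and those past 2-fold in at least 3 clusters with at least 100 UMIs (17 in all), and for the other lists at most 4 genes with the most UMIs. Alternatives were scaling by TMM (edgeR 4.0.16) or by median of ratios (DESeq2 1.42.0), stricter cells, an earlier doublet call, thinning to 5000 or 2000 UMIs, equal weight per cell, other count minimums and folds, other range borders, and sums without the leading members. Protein sequences were not used here.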

Additional observations from a re-analysis of the deposited data

Results flagged for a closer look

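For 5 named members the log2 ratio of W over UW lay above 0.5 in some clusters and below -0.5 in others, with intervals that left out 0, and these differences between clusters were not tested. Hist1h1c was 0.61 in cluster 7 (0.23 with TMM and 0.20 with median-of-ratios scaling) and -1.31 in cluster 11. Hist1h2ae was 1.63 in cluster 6 and -0.66 in cluster 8. Hist1h2be was 0.73 in cluster 0 and -1.02 in cluster 9. Hist1h3d was 1.03 in cluster 1 and -0.70 in cluster 9. Hist4h4 was 3.25 in cluster 4 and -1.34 in cluster 8.

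In the neutrophil-like cluster 13, which comes almost wholly from W and entered no comparison, 2 members had at least 20 UMIs and at least 2 times their highest level in the compared clusters of W. Hist1h2be was at 30.0 CPM (55 UMIs, 22.6 to 39.0), where the highest compared cluster of W had 7.51, and Hist4h4 was at 24.0 CPM (44 UMIs, 17.4 to 32.2), where the highest had 3.75.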

How the results depend on the processing

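Ratios here are log2 of CPM in W over CPM in UW, the causes of their shifts were not tested, and depth limits the low members most, since a ratio rests on as few as 20 UMIs. For all members summed, cluster 0 (0.76) gave 0.91 with TMM, 0.94 with median-of-ratios factors, 0.82 with cells thinned to 5000 UMIs, 0.85 without Hist1h1c and 0.11 without Hist1h1c and Hist1h2bc. Cluster 1 (0.10) turned to -0.03 with either scaling. Cluster 3 (-0.20) gave -0.26 with TMM, -0.27 with median-of-ratios factors, -0.26 with stricter cells (1000 genes or more, mitochondrial UMIs up to 5%), -0.03 thinned and -0.04 with equal weight per cell, and turned to 0.40 without Hist1h1c and 0.35 without both. Cluster 8 (-0.14) gave in the same order -0.03, -0.04, -0.19, -0.10 and -0.07, turned to 0.28 without Hist1h1c or without both, and was -0.60 in cells with neither list high. Cluster 9 (-0.46) turned to 0.05 and 0.13 without Hist1h1c and without both. Cluster 11 (-0.18) gave -0.21 with stricter cells, -0.13 with equal weight and -0.25 in cells with neither list high, and turned to 0.81 and 0.65. Leaving out an earlier run's doublets, or the barcodes found in both libraries, moved none of the 12 sums beyond counting error. No library could be left out, with 1 per condition. The sums without both members, without shared barcodes and over cells with neither list high were chosen after seeing the data.

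The other scalings moved the median ratio of all genes by 0.14 and 0.17 in cluster 0, -0.13 in cluster 1, -0.16 in cluster 6, -0.38 and -0.41 in cluster 7, 0.11 and 0.10 in cluster 8, 0.13 and 0.12 in cluster 9 and 0.11 and 0.12 in cluster 10. Of 509 values of 85 single-member ratios under 6 settings, 1 reversed (Hist1h3d in cluster 3, 0.07 thinned) and 19 moved by over 1.5 times. At a fold of 1.5, 9 of 56 members were lower in cluster 8, 9 of 40 in cluster 3 and 5 of 32 in cluster 1, beside 22.4%, 22.0% and 22.5% of all genes. With at least 1 UMI in each library, members 2-fold higher were 18 of 51 in cluster 0, 33 of 51 in cluster 1 and 20 of 58 in cluster 3, beside 8.98%, 20.6% and 18.1% of all genes. With at least 100 UMIs, they were 2 of 12, 6 of 16, 3 of 18 and 4 of 15 in clusters 0, 1, 3 and 11, beside 4.95%, 10.2%, 11.6% and 9.93%, and those lower were 1, 2, 3 and 3, beside 7.32%, 10.1%, 9.72% and 7.65%. With TMM or median-of-ratios factors, 2 were lower in cluster 0.

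For members without the top 2, the log2 ratio over cells with neither list high was 0.95 (S alone) and 3.86 (both) in UW and 0.42 and 2.82 in W. It was 1.69, 4.40, 1.90 and 3.0 with borders at the highest 5%, and 0.84, 3.74, 0.57 and 2.66 thinned, and leaving Slbp, Casp8ap2 and Nasp out of the S list changed none of them beyond counting error. Shares of cells with a Hist1h1b UMI at 5000 and 2000 UMIs were 41.4% and 22.6% in UW and 51.0% and 33.4% in W in cluster 8, and 9.50% and 5.25% and 23.0% and 10.2% in cluster 11. For Hist1h1c in cluster 8 (94.8% in UW, 96.1% in W as deposited), they were 80.2% and 58.5% in UW and 62.8% and 40.0% in W, and at 2000 UMIs the neutrophil-like cluster 13 of W had 32.4% (28.6 to 36.3), just below the interval of cluster 8 of W (37.3 to 42.7).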

Other observations

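The other immune clusters, almost wholly from W, also held member UMIs. Summed over all members, cluster 13 (neutrophil-like, 710 cells) was at 834 CPM (793 to 877), clusters 14 and 15 (monocyte-like, 354 and 251 cells) at 512 and 269, and cluster 16 (T-like, 215 cells) at 576. Without Hist1h1c and Hist1h2bc the values were 342, 167, 124 and 287. Hist1h1c was at 268 CPM in cluster 13 and 89.3 in cluster 15, and Hist1h1b at 40.9, 16.6, 9.96 and 34.6 in clusters 13 to 16. Hist1h4i, an H4 gene, was at 50.7 in cluster 13, where the highest compared cluster of W had 46.7, and between 7.87 and 16.4 in the other 3.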
